A study of Oryctolagus cuniculus with 3 samples.

Results

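Radixin (RDX), moesin (MSN) and ezrin (EZR), which make up the ezrin family, were compared with 7 other actin-binding proteins in rabbit embryos that had been slow-frozen or vitrified. The 7 were the contractile proteins MYL9, TAGLN and TPM1 and the actin regulators GSN, ACTN1, PFN1 and ARPC2. The 10 genes are a list of names drawn up with earlier results of these data known, and all 10 had a probe among the 6506 genes with a symbol. They had 25 of the 22839 probes in the deposited table. Of these, 21 were found by gene name, description, transcript or gene identifier. The other 4 (the MYL9 probe, both ARPC2 probes and the brighter TAGLN probe) were named only through the accessions listed for the probe.

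Morulae were recovered on day 3 after artificial insemination, cryopreserved by slow freezing or by vitrification, and transferred to recipient does. For all 3 samples the vitrification temperature is given as 20 °C and the total RNA as 100 ng. Embryos were taken from the does on day 6, as late blastocysts. The sources used here give no rabbit strain, no number of embryos per RNA sample and no fresh, uncryopreserved group, so each value sets one method against the other. Total RNA of frozen and of vitrified embryos was hybridised together on each of 3 arrays with 2 dyes, which the labels call biological replicates. Frozen embryos carried Cy5 on replicates 1 and 3 and Cy3 on replicate 2. The deposited values of replicate 2 are likely frozen over vitrified, like those of the other arrays, but the sources do not state it. Results that turn on this are given with the sign of that array turned as well.

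Ezrin, radixin and moesin tie the actin cortex to the plasma membrane. Their amino-terminal FERM domain binds membrane proteins and scaffolds, their carboxy-terminal end binds actin filaments, and phosphorylation of a conserved threonine near that end holds the molecule open. In epithelia, the blastocyst's trophectoderm among them, ezrin is known from apical microvilli. The comparison members act elsewhere on actin. Myosin light chains and tropomyosin belong to contractile filaments, gelsolin severs filaments, alpha-actinin cross-links them, profilin loads monomers and the Arp2/3 complex starts branches.

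The probes are 60 bases long and were read from the array's own annotation, whose coordinates come with no named genome build. The brightest probes of EZR and MSN are shown first because they lie at the same place of the 2 related messages, with the bases that differ in capitals.
EZR: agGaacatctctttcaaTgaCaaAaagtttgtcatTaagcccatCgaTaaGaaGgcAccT
MSN: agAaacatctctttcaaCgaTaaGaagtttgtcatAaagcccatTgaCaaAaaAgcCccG
The EZR probe starts at base 735 of its transcript (chr12:148792930-148792989, minus strand), and the MSN probe at base 723 (chrX:44320549-44320608, plus strand). They share 49 of 60 bases (81.7%), with a longest common run of 14 bases. All 11 differences fall on the third base of a codon, so that 20 of 20 encoded residues are the same. Whether either probe also binds the other message was not tested.

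The 3 RDX probes are shown because they lie side by side in the coding sequence and did not read alike. In the second, capitals mark a threonine codon, and in the third the stop codon.
RDX, base 1559: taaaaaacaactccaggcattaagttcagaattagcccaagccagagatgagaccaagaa
RDX, base 1620: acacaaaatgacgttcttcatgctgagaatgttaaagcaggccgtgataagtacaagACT
RDX, base 1680: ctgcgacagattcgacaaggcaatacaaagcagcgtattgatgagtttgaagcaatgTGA
The first probe lies at chr1:106287549-106288782 on the plus strand. It covers 1234 bases of genome for its 60 bases and so crosses an intron. The second (chr1:106288784-106288843) and the third (chr1:106288844-106288903) are adjacent.

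By its brightest probe, and with replicate 2 as deposited, RDX was the member with the highest mean. The log2 ratio of frozen over vitrified was 0.57, 0.41 and 0.49 on replicates 1, 2 and 3 by its brightest probe, a mean of 0.49 ± 0.08 (SD, n = 3), or 1.40-fold. All 3 arrays lay above 0. It did not pass the test over all probes (limma, adjusted p = 0.87). Among the 6506 genes, each by its brightest probe, 66 (1.01%) had a mean at least as high, and 16 (0.25%) a lowest array at least as high, RDX included. With the sign of replicate 2 turned these become 556 genes (8.55%) at a mean of 0.22, and 4257 genes (65.43%) at a lowest array of -0.41. The log2 signal was 10.43 in frozen and 9.86 in vitrified embryos on replicate 1, and 10.25 and 9.76 on replicate 3. In such whole-embryo RNA, fewer cells of a type and less RNA per cell cannot be told apart.

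The other RDX probes read lower. The probe at base 1620 gave 0.16, 0.04 and 0.11, a mean of 0.10 ± 0.06 (SD, n = 3). The probe at base 1680 gave 0.36, 0.04 and 0.23, a mean of 0.21 ± 0.16 (SD, n = 3). Both were above 0 on all 3 arrays too. With the mean of all probes of a gene, RDX was at 0.27, below MSN (0.37) and GSN (0.32). The first probe exceeded the second by 0.41, 0.36 and 0.38, a mean of 0.39 ± 0.02 (SD, n = 3). It exceeded the third by 0.21, 0.36 and 0.26, a mean of 0.28 ± 0.08 (SD, n = 3). The gap to the second probe was nearly constant over arrays, and its cause was not tested.

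MSN, measured by 1 probe, was also above 0 on every array. Its log2 ratio was 0.26, 0.36 and 0.48, a mean of 0.37 ± 0.11 (SD, n = 3), or 1.29-fold, with a limma adjusted p of 1. Among all genes, 164 (2.52%) had a mean at least as high, MSN included. With the sign of replicate 2 turned, 1171 did, at a mean of 0.13. Its log2 signal was 8.30 in frozen and 8.04 in vitrified embryos on replicate 1, and 8.43 and 7.95 on replicate 3. By brightest probes, RDX exceeded MSN by 0.30 on replicate 1 and by 0.04 and 0.02 on replicates 2 and 3. The pair were then nearly level on the last 2 arrays. By the mean of its 3 probes RDX was at 0.36, 0.16 and 0.28, below MSN on replicates 2 and 3.

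EZR had the opposite sign to its relatives on replicate 1 and lay below both on replicate 3. It gave -0.86, 0.35 and 0.10 on the 3 arrays, a mean of -0.14 ± 0.64 (SD, n = 3; limma adjusted p = 1). Without replicate 1 the mean was 0.23, so with replicate 2 as deposited replicate 1 alone sets its sign. With the sign of replicate 2 turned, EZR would be below 0 on that array too, and this would not hold. RDX exceeded EZR by 1.43, 0.05 and 0.39, and MSN exceeded it by 1.13, 0.01 and 0.38 on the 3 arrays. On replicate 1 the log2 signal of EZR was 9.12 in frozen and 9.99 in vitrified embryos, and on replicate 3 it was 9.13 and 9.03. Vitrified embryos were thus the brighter on replicate 1 and slightly the dimmer on replicate 3.

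A second EZR probe, at base 2274 near the transcript's 3′ end, did not repeat this. It read 0.11, -0.04 and 0.03, a mean of 0.04 ± 0.08 (SD, n = 3). Its log2 signal of 6.01 was low, under the 6.9 that bounds the dimmest quartile of the table. Its ratio minus that of the coding probe was 0.98, -0.39 and -0.07. The same 3′ minus 5′ difference was taken in 213 transcripts whose outermost probes lay 500 or more bases apart, and its median was 0.24, -0.13 and -0.055. The part of transcript position in the EZR values was not tested. The array holds 6 EZR probes, of which 5 sit at the 3′ end, and only 1 of those 5 is in the table.

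**Figure D1:**
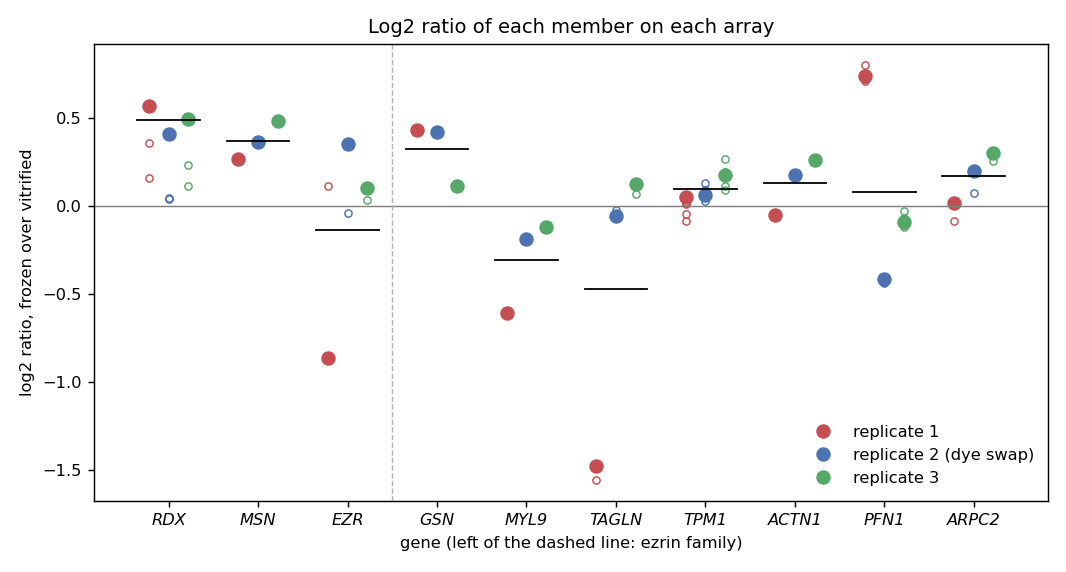
Log2 ratio of frozen over vitrified embryos (y axis) for each gene (x axis) on replicates 1, 2 and 3. Filled points are the brightest probe, open points other probes of the gene, and bars the mean of the brightest probe. RDX and MSN lie above 0 on all 3 arrays (replicate 2 as deposited), while EZR (-0.86) and TAGLN (-1.47) are far below it on replicate 1 only.

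Among the contractile members, MYL9 was the only one below 0 on all 3 arrays. MYL9 encodes a regulatory light chain of myosin II, and its probe reaches the stop codon, in capitals, which places the value at the end of the coding sequence.
MYL9: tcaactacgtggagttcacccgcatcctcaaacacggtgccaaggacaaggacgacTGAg
The probe lies at chr4:3443689-3443748 on the minus strand. Its log2 ratio was -0.61, -0.19 and -0.12, a mean of -0.30 ± 0.27 (SD, n = 3; limma adjusted p = 1). The mean is close to its SD, and replicate 1 was the lowest of the arrays. Without replicate 1 the mean was -0.15, with replicate 2 as deposited. The log2 signal was 9.88 in frozen and 10.49 in vitrified embryos on replicate 1, and 10.04 and 10.16 on replicate 3.

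TAGLN, or transgelin, an actin-bundling protein of smooth muscle and many other contractile cells, had the widest spread of the 10. Its probes are shown because the low value on replicate 1 came from both of them, at separate sites.
TAGLN, base 389: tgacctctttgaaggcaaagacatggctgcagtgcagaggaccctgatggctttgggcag
TAGLN, base 499: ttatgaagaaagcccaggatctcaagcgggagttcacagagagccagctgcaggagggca
They lie at chr1:99217951-99218242 and chr1:99217543-99217900 on the minus strand, and each crosses an intron. The first gave -1.47, -0.06 and 0.12, a mean of -0.47 ± 0.88 (SD, n = 3; limma adjusted p = 1). The second gave -1.56, -0.02 and 0.07. Without replicate 1 the mean of the first was 0.033, so the negative mean rests on that array. Only 12 of the 6506 genes, TAGLN included, were at or below its value on replicate 1. There its log2 signal was 9.84 in frozen and 11.32 in vitrified embryos, against 10.40 and 10.28 on replicate 3.

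TPM1, the tropomyosin that lies along actin filaments, was near 0 throughout. Its brightest probe gave 0.05, 0.06 and 0.17, a mean of 0.09 ± 0.07 (SD, n = 3). Its 7 probes are shifted by at most 7 bases, so that they share 53 bases and are no independent readings. Their means ran from 0.03 to 0.12.

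GSN, the severing and capping protein gelsolin, came nearest to MSN among the comparison members. It gave 0.43, 0.42 and 0.11, a mean of 0.32 ± 0.18 (SD, n = 3; limma adjusted p = 1). It was above 0 on every array, with replicate 3 the lowest. With normexp and loess on replicates 1 and 3 its mean was 0.08. Its log2 signal was 7.92 in frozen and 7.49 in vitrified embryos on replicate 1, and 7.81 and 7.69 on replicate 3.

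The cross-linker ACTN1 (alpha-actinin) gave -0.05, 0.18 and 0.26, a mean of 0.13 ± 0.16 (SD, n = 3). ARPC2, a subunit of the Arp2/3 complex, gave 0.015, 0.20 and 0.30, a mean of 0.17 ± 0.14 (SD, n = 3). A second ARPC2 probe gave -0.09, 0.07 and 0.25. For both genes replicate 1 was the lowest array and replicate 3 the highest, and no mean was far from its SD.

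PFN1, profilin, which carries actin monomers to growing filaments, took opposite signs on different arrays. It gave 0.74, -0.41 and -0.09 on the 3 arrays, a mean of 0.08 ± 0.60 (SD, n = 3). Its 5 probes share 55 bases and ran from 0.71 to 0.80 on replicate 1 and from -0.44 to -0.41 on replicate 2. On replicate 1, 127 of the 6506 genes (1.95%), PFN1 included, were at least as high. Without replicate 1 the mean was -0.25 with replicate 2 as deposited. With the sign of replicate 2 turned, PFN1 would be above 0 on that array. PFN1 was thus high on the array where EZR, TAGLN and MYL9 were low.

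**Figure D2:**
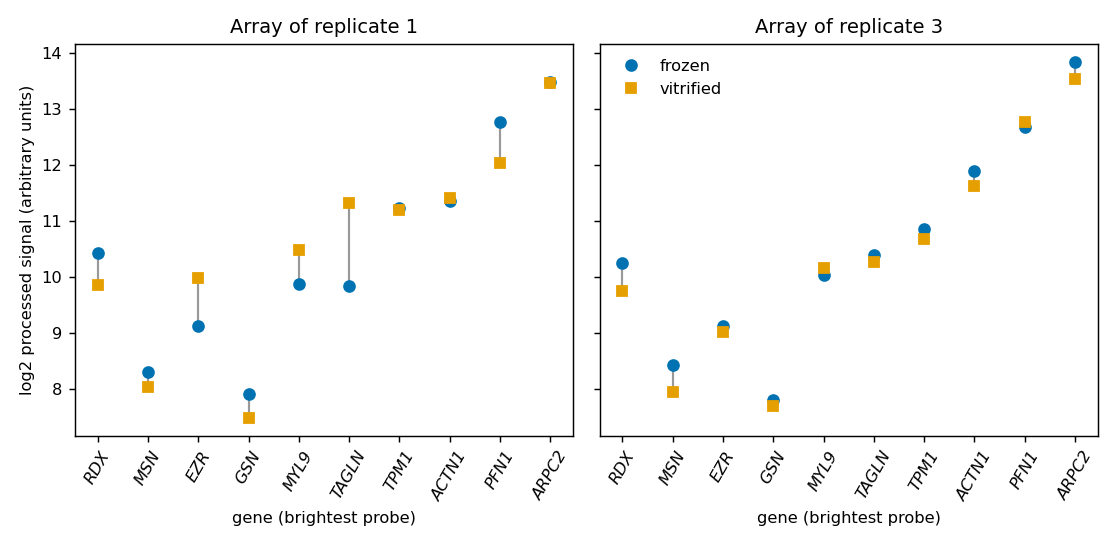
Log2 processed signal (y axis, arbitrary units) of the brightest probe of each gene (x axis) in frozen (circles) and vitrified (squares) embryos on the arrays of replicates 1 and 3; lines join the values of a gene. The gaps of EZR, TAGLN and PFN1 on replicate 1 (TAGLN 9.84 against 11.32) are narrow on replicate 3 (10.40 against 10.28), while RDX has a like gap on both.

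None of the 10 members passed the test at an adjusted p of 0.05, nor did any other probe (limma, 0% of 22839 probes). At an unadjusted p under 0.05, limma called 1020 probes (4.47%), 421 of them higher in frozen and 599 higher in vitrified embryos. Of all genes by their brightest probe 270 of 6506 (4.15%) were called so, and of the members 2 of 10, RDX and MSN. Of the members' 25 probes 2 were called, so neither of the other RDX probes was. The members were chosen with earlier results known, so their share is no test of them. All counts here use replicate 2 as deposited. By their brightest probes, 5 of the 10 members (RDX, MSN, GSN, TPM1 and ARPC2) were above 0 on all 3 arrays, where 10.8% of all genes were. With the mean of all probes of a gene, TPM1 (-0.002) and ARPC2 (-0.036) were slightly below 0 on replicate 1. MYL9 was the 1 below 0 on all 3, where 11.7% of all genes were. The median of the members' means was 0.11, beside -0.01 over all genes.

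Set against the other members, the ezrin family stood higher on each array by its median, with replicate 2 as deposited. The median of RDX, MSN and EZR was 0.26, 0.36 and 0.48, which on every array was the value of MSN. The median of the other 7 was 0.015, 0.06 and 0.12. The difference was 0.25, 0.30 and 0.36, a mean of 0.30 ± 0.05 (SD, n = 3). With the sign of replicate 2 turned it is -0.30 on that array, where the family's median is then the lower, and its mean is 0.101. With means in place of medians it was 0.12, 0.345 and 0.25, a mean of 0.24 ± 0.11 (SD, n = 3). With the mean of all probes of a gene it was 0.185, and with normexp and loess on replicates 1 and 3 it was 0.203. By brightest probes, 2 of 3 genes of the ezrin family were above 0 on all arrays, and among the others 3 of 7 were. The groups overlapped on every array: GSN and PFN1 were above MSN on replicate 1, GSN above all 3 on replicate 2, and on replicate 3 EZR was below GSN, ACTN1, ARPC2, TPM1 and TAGLN. No test was made of this difference, because the genes were chosen with results in view.

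**Figure D3:**
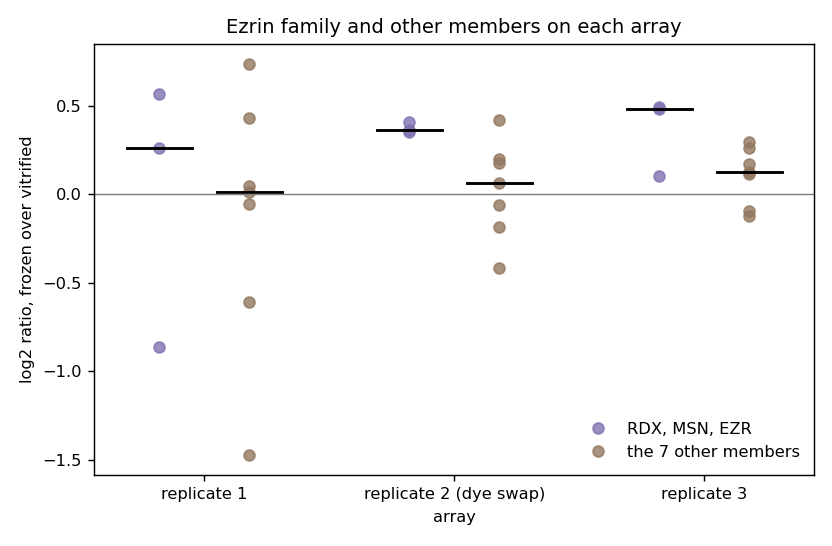
Log2 ratio of frozen over vitrified embryos (y axis) on each array (x axis), with RDX, MSN and EZR to the left and the 7 other members to the right; points are genes by their brightest probe and bars are medians. With replicate 2 as deposited, the median of the ezrin family is above that of the others on each array (0.26 against 0.015, 0.36 against 0.06, 0.48 against 0.12), and the points overlap.

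With the sign of that array turned, the mean would be 0.22 for RDX, 0.13 for MSN, -0.37 for EZR and 0.04 for GSN. It would be -0.18 for MYL9, -0.43 for TAGLN, 0.05 for TPM1, 0.009 for ACTN1, 0.35 for PFN1 and 0.04 for ARPC2. No mean would change sign, but none of the 10 members would keep 1 sign on all 3 arrays, against 26.3% of all genes.

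The wider actin machinery, 76 measured genes in 7 lists, showed no common direction. Above 0 on all 3 arrays were 10 of them (13.2%) and below 0 on all 3 were 11 (14.5%), with a median mean of -0.007. Over all genes the shares were 10.8% and 11.7%, and the median -0.01. None of the 76 passed the limma test after adjustment. At an unadjusted p under 0.05 there were 4, where 4.15% of all genes were. The 2 genes with the smallest p of each list are named here. All counts, medians and calls of these lists, above and below, use replicate 2 as deposited.

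Of the regulators and partners of the ezrin family, 12 of 21 were measured, with a median mean of 0.02, 4 above 0 and 2 below 0 on all arrays. NHERF1, a scaffold that binds the FERM domain, gave 0.51, 0.06 and 0.50, a mean of 0.355 ± 0.26 (SD, n = 3). Its 6 probes had means from -0.02 to 0.37. SLK, a kinase that phosphorylates the conserved threonine, gave 0.455, 0.38 and 0.17, a mean of 0.33 ± 0.15 (SD, n = 3). Both were above 0 on all arrays, as RDX and MSN were, with replicate 2 as deposited. With its sign turned, NHERF1, SLK, RDX and MSN would all be below 0 on that array. Of the genes of microvilli and brush border, 6 of 16 were measured, with a median of -0.05, none above 0 and 1 below 0 on all arrays. SPTAN1, a spectrin of the membrane skeleton, gave -0.62, 0.015 and -0.45. CLIC4, a protein found at the actin cortex, gave -0.81, -0.12 and -0.24. It was below 0 on all 3 arrays, the 1 gene of this list that was.

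Of the actins and the monomer or severing factors, 14 of 26 were measured, with a median of -0.03, 2 above 0 and 1 below 0 on all arrays. PFN2, the second profilin, gave 0.009, -0.63 and -0.33, and did not share the high value of PFN1 on replicate 1. CAPG, a capping protein of the gelsolin family, gave 0.04, 0.46 and 0.41, and was above 0 on all arrays like GSN. Of the Arp2/3 complex and other nucleators, 16 of 20 were measured, with a median of 0.04, 1 above 0 and 2 below 0 on all arrays. ARPC5L, an Arp2/3 subunit, gave -0.20, -0.09 and -0.42, against the values above 0 of the brightest ARPC2 probe. DIAPH3, a formin that elongates filaments, gave -0.26, 0.77 and 0.51.

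Of the other contractile proteins, 8 of 17 were measured, with a median of -0.02, none above 0 and 1 below 0 on all arrays. TPM2, a second tropomyosin, gave -0.77, 0.28 and -0.76, a wider spread than TPM1. It was read by 1 dim probe, with a log2 signal of 5.06 against 10.99 for the brightest TPM1 probe. TAGLN3, a relative of TAGLN, gave -0.52, -0.15 and -0.07. It was low on replicate 1, as TAGLN and MYL9 were. Of the cross-linkers and adhesion proteins, 16 of 26 were measured, with a median of 0.045, 3 above 0 and 3 below 0 on all arrays. All 4 unadjusted calls are in this list, 2 in each direction. LASP1, an actin-binding protein of adhesions, gave 0.47, 0.37 and 0.66, a mean of 0.50 ± 0.15 (SD, n = 3; limma adjusted p = 0.87). ANLN, the scaffold anillin of the cleavage furrow, gave 0.55, 0.625 and 0.32, a mean of 0.50 ± 0.16 (SD, n = 3, limma adjusted p = 0.895). Its 1 probe was dim, with a log2 signal of 6.34. The other 2, named after their values were seen, are PDLIM7 (-0.43, -0.34 and -0.245, a mean of -0.34) and PALLD (-0.22, -0.50 and -0.94, a mean of -0.55), adaptors of actin bundles. Of the targets and cofactors of the actin-sensing factors SRF and YAP, 4 of 12 were measured, with a median of 0.11, none above 0 and 1 below 0 on all arrays. MRTFB, an SRF cofactor that senses free actin, gave 0.32, -0.004 and 0.52, and FHL2 gave -0.04, -0.60 and -0.525.

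Turning the sign of replicate 2 changes the sign of 4 of these named means: PFN2 would be at 0.10, CAPG at -0.005, DIAPH3 at -0.175 and FHL2 at 0.01. LASP1 would be at 0.25, and ANLN and SLK at 0.08. The means of NHERF1 (0.32), MRTFB (0.28), SPTAN1 (-0.36), CLIC4 (-0.31), ARPC5L (-0.17), TPM2 (-0.60) and TAGLN3 (-0.145) would keep their signs.

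**Figure D4:**
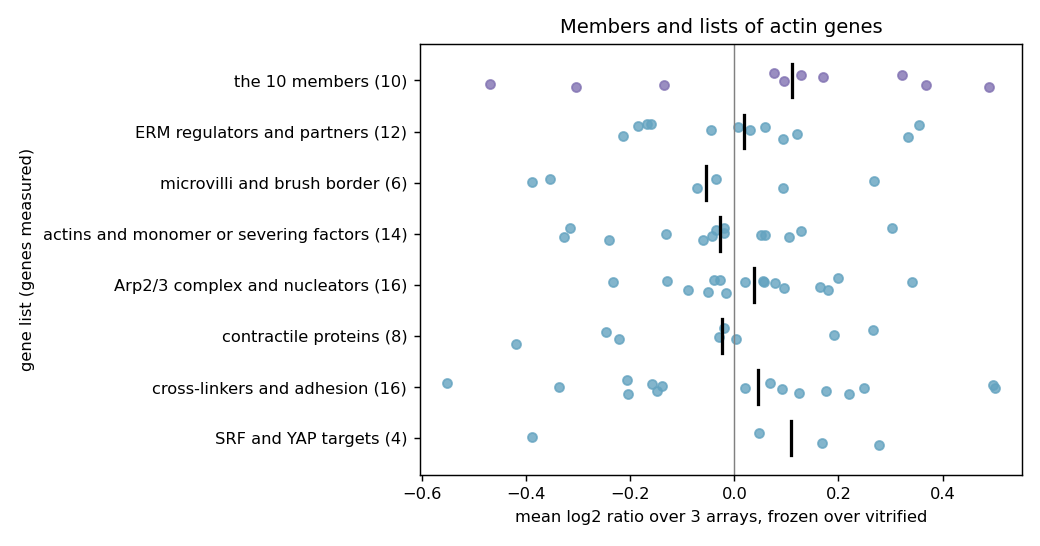
Mean log2 ratio over the 3 arrays, frozen over vitrified (x axis), for the 10 members and for the measured genes of 7 lists of actin genes (y axis, with the number measured). Points are genes and bars are list medians. With replicate 2 as deposited, the lists' medians lie between -0.05 and 0.11, and the members' median is 0.11.

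The genes whose 3 values lay nearest to those of RDX, by Euclidean distance over the 3 arrays, were none of the actin genes above. TPMT, a methyltransferase, gave 0.51, 0.45 and 0.50 (distance 0.07). ATP6AP2, an accessory subunit of the proton pump, gave 0.54, 0.47 and 0.425 (distance 0.10). GALC, a lysosomal galactosidase, gave 0.63, 0.35 and 0.39 (distance 0.13). TPMT and GALC were dim, with log2 signals of 6.55 and 6.46, under the 6.9 that bounds the dimmest quartile. ATP6AP2 was at 12.99 and RDX at 10.07.

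Markers of cell types moved between the arrays as well, and their part in the members' values was not tested. Values of replicate 2 and counts over the arrays are given here with replicate 2 as deposited. The 7 measured of 12 trophoblast markers had medians of -0.16, 0.245 and 0.05 on replicates 1, 2 and 3, with GATA3 at -0.04, 0.565 and 0.76 and the keratin KRT8 at -0.74, 0.37 and -0.10. The list ranged from -0.74 to 0.59 on replicate 1, from -0.32 to 0.565 on replicate 2 and from -0.35 to 0.76 on replicate 3. The 7 of 13 hypoblast markers had medians of -0.27, -0.81 and -1.37, with APOB at -0.27, -0.81 and -1.885. They ranged from -0.59 to 0.66 on replicate 1 and were all below 0 on the other arrays, and 4 of 7 were below 0 on all 3. With the sign of replicate 2 turned, all 7 would be above 0 on that array, and none below 0 on all 3. The means of RBP4 and DKK1 would then be 0.29 and 0.27, and the other means of the list would stay below 0. The 5 of 10 epiblast markers had medians of -0.75, 0.12 and -0.38, with POU5F1 at -0.75, -0.52 and -1.62. They ranged from -1.55 to -0.03 on replicate 1, from -0.52 to 0.38 on replicate 2 and from -1.62 to 0.42 on replicate 3, and 2 of 5 were below 0 on all 3. For tissue of the doe, the 4 of 11 uterine markers had medians of -0.12, -0.05 and -0.11, and SCGB1A1 gave -0.67, -0.62 and 0.13. The 10 probes of SCGB1A1 had means from -1.05 to -0.33. The uterine list ranged from -0.67 to 0.26 on replicate 1, from -0.62 to 0.06 on replicate 2 and from -1 to 0.18 on replicate 3. The 3 of 8 smooth muscle markers (DES, SMTN and ACTG2) had medians of 0.185, 0.04 and 0.18 and ranged from -0.71 to 0.56 on replicate 1, where TAGLN was at -1.47. MYH11, which defines smooth muscle, was not measured, and DES was dim, with a log2 signal of 6.38. The 3 of 9 blood markers had medians of 0.54, -0.24 and -0.01, with the globin HBA at 1.88, -2.23 and -1.79. They ranged from -0.07 to 1.88 on replicate 1, from -2.23 to -0.15 on replicate 2 and from -1.79 to 0.25 on replicate 3. The mean of HBA was -0.715, and would be 0.77 with the sign of replicate 2 turned.

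The arrays did not run together in the table as a whole. Over all probes the log2 ratios correlated at -0.36 between replicates 1 and 2, at -0.01 between 1 and 3 and at 0.48 between 2 and 3. Turning replicate 2 makes these 0.36, -0.01 and -0.48, so which array stands apart depends on that sign. The share of genes above 0 was 41.6%, 57.0% and 53.3% on replicates 1, 2 and 3, and of the members 6, 7 and 8 of 10 were. Of the 43603 probes on the array, 22839 had deposited values. All of these were well above background in both channels of the scanner files, and none was saturated. How probes were kept for the deposited values was not tested. The result may be fixed by that choice, so it does not measure the quality of the arrays. The 6506 genes, and all shares of genes given here, come from these kept probes only. With 3 arrays the number of replicates limits the precision.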

How the data were processed

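The authors deposited scanner files of replicates 1 and 3, with spot intensity per channel and a log10 ratio written by version 10.10.1.1 of Agilent Feature Extraction, per the submitters' processing notes, together with a table of log2 ratios of all 3 arrays. The scanner file of replicate 2 was not used here. For replicates 1 and 3 the table equals log2 frozen over vitrified processed intensity within 3e-06 and 2e-06 (probes with 1 spot). The direction of replicate 2 was read from 10 spike-in probes, whose ratios follow the dye if each mix had its usual dye. For replicates 1 and 3 they had r = 0.99, and for replicate 2 with either one r = -1.00, which makes its column likely frozen over vitrified. Columns were already centred near 0 (medians -0.015, 0.021 and 0.017). There are 0 further sample columns. A genome build is named nowhere in the sources used here.

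Of 22839 probes, 14324 were named through the rabbit RefSeq table, most from the scanner files' gene names, descriptions, transcripts and identifiers, 1233 from listed accessions and 385 by a transcript shared with a named probe. The brightest probe by mean log2 intensity stands for a gene. Each log2 ratio was tested against 0 (lmFit and eBayes of limma 3.58.1, R 4.3.3), p-values were adjusted by Benjamini-Hochberg over 22839 probes, and the threshold was 0.05. The script was tested on simulated data. Python 3.11.15 was used for joins (pandas 2.3.3) and figures (matplotlib 3.10.9). Named genes were the 10 members, the 2 genes of smallest unadjusted p of each list, the 3 nearest to RDX, and set markers. The members and lists were chosen with earlier results of these data known. Alternatives changed the sign of replicate 2, the variance model, a dye term, centring, the probe rule, a signal filter and the background correction, and left out each array. Labels give no further split of the 3 arrays, so p-values measure the spread between them.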

Additional observations from a re-analysis of the deposited data

How the results depend on the processing

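RDX, MSN, GSN, TPM1, ACTN1 and ARPC2 kept a mean above 0, and MYL9 below 0, under the 10 alternatives (RDX 0.22 to 0.53, MSN 0.13 to 0.42, MYL9 -0.40 to -0.15). Of these, the other variance model cannot move a mean, and the processed signals of replicates 1 and 3 repeat the fit without replicate 2. No member passed the threshold under any of them. Leaving out 1 array at a time, with replicate 2 as deposited, between 0 and 796 probes passed. The 796 (limma, without replicate 1) are 3.485% of the 22839 probes and rest on replicates 2 and 3 alone. They held no member, which at that share is no result about the 10 members. In that fit the limma adjusted p was 0.13 for RDX and 0.16 for MSN, the lowest of their ranges up to 1. Over all probes these 2 arrays correlate at 0.48 as deposited and at -0.48 with replicate 2 turned. That fit was not repeated with the sign turned. Leaving out 1 array at a time moved EZR between -0.38 and 0.23, TAGLN between -0.77 and 0.0328 and PFN1 between -0.25 and 0.32. Each changed sign without replicate 1, with replicate 2 as deposited. PFN1 was -0.046 with a dye term. The ezrin family's median exceeded that of the others by 0.302, against 0.238 with means, 0.185 with the mean of all probes of a gene, 0.203 with normexp and loess on replicates 1 and 3, and 0.101 with the sign of replicate 2 turned. Members of 1 sign on all 3 arrays numbered 6 of 10 by brightest probe, where 22.4% of all genes were. They numbered 4 with the mean of all probes of a gene. With the sign of replicate 2 turned they numbered 0, where 26.3% of all genes were of 1 sign. With normexp and loess they numbered 5 over replicates 1 and 3 only. A count over 2 arrays cannot be set beside those over 3, because 1 sign is easier to keep. The cause of these shifts was not tested. With 3 arrays, and scanner signals for 2 of them, precision is limited.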
